A study of Mus musculus with 76 samples.

Results

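The 6 genes described here mark Cajal-Retzius cells (Reln, Trp73, Lhx1, Lhx5, Calb2 and Ebf3), and they were followed across 76 RNA-seq libraries of mouse embryonic brain. They were taken by gene symbol from the deposited gene-level table, which holds 14823 genes, and all 6 were present and passed the filter on low counts that left 14339 genes for testing. The tissue was dorsal forebrain, the region that forms the cerebral cortex, from C57Bl/6J embryos of both sexes at embryonic day 16. Parents received vehicle or α-cypermethrin, a pyrethroid insecticide that acts on voltage-gated sodium channels, over 28 days that ended before mating, with an initial run of 7 days and then blocks of 5 days of dosing that each followed 2 days without.

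In the Ctrl group both parents had received vehicle (n = 12). Only the father had received the insecticide in Paternal_0.3Cyp (n = 12) and Paternal_10Cyp (n = 10), only the mother in Maternal_0.3Cyp (n = 12) and Maternal_10Cyp (n = 8), and both parents, at 1 shared dose, in Both_0.3Cyp (n = 12) and Both_10Cyp (n = 10). The doses are labelled 0.3 and 10 with no unit. Each group was split over a batch 1 and a batch 2, as labelled. No litter is labelled, so that p-values measure the spread between these libraries, and littermates, if present, were counted as separate samples.

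Cajal-Retzius cells are early-born neurons that spread over the surface of the cortex, in the marginal zone, and are best known as the main source of reelin there. Reelin is a large secreted glycoprotein that binds the receptors Vldlr and Apoer2 (the product of Lrp8) on migrating neurons and leads to phosphorylation of the adaptor Dab1, a step needed for the layered order of the cortex. Most of these cells come from the cortical hem, the septum and the pallial-subpallial boundary. Trp73 encodes p73, a p53 relative made by the hem-derived and septal cells, while Lhx1 and Lhx5 encode LIM homeodomain transcription factors, Ebf3 a helix-loop-helix factor of the COE family, and Calb2 the calcium-binding protein calretinin. None of the 6 is limited to this cell type in the whole forebrain: Reln and Calb2 are also used by interneurons, and Lhx1, Lhx5, Ebf3 and Calb2 by neurons of the thalamus and its neighbours in the diencephalon.

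At the median library total, 1 estimated count equals 0.0522 CPM (counts scaled to a common library total). Levels are CPM on library sizes scaled by the trimmed mean of M-values (normalised CPM). In all, 5 libraries lay more than 3 median absolute deviations above the median in markers of the diencephalon: Ctrl replicate 3, Paternal_0.3Cyp replicates 4, 6 and 9, and Paternal_10Cyp replicate 1. Of these, Paternal_0.3Cyp replicate 9 held 539.5 summed CPM of those markers and Ctrl replicate 3 held 195.1, where the median of all 76 was 36.8. The same libraries were the lowest and the second lowest in upper-layer cortical neuron markers (1270 and 1300 summed CPM, median 1926). Values without some or all of these libraries stand beside the comparisons of Lhx1, Lhx5, Calb2 and Ebf3.

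The members differed widely in level. Per kilobase of the longest annotated transcript, the Ctrl median was 19.6 normalised CPM for Calb2, 14.3 for Reln, 3.13 for Trp73, 2.39 for Lhx5, 1.67 for Ebf3 and 0.796 for Lhx1. The ranges over the 12 Ctrl libraries overlapped for Calb2 (14.3 to 49.3 per kilobase) and Reln (8.44 to 23.5). They also overlapped among Trp73 (2.73 to 4.41), Lhx5 (1.46 to 4.73), Ebf3 (1.26 to 5.90) and Lhx1 (0.519 to 2.92). The ranges of Lhx1 and Trp73 met only through Ctrl replicate 3, with 11.2 CPM of Lhx1 before division by length, where the next Ctrl library held 5.97. Other than that pair, the members within each of these sets were not apart beyond their spread. The lowest Ctrl value of Reln lay above the highest of Trp73, Lhx5, Ebf3 and Lhx1. Raw counts behind these levels ranged from 1226 to 8141 per library for Reln and from 19 to 725 for Lhx1, the member with the fewest. Trp73 was the steadiest member, with a coefficient of variation of 20.01% over the 76 libraries, and Ebf3 and Lhx1 the most variable, with 113% and 112%.

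On GRCm38 (mm10), Reln (ENSMUSG00000042453) lies on the minus strand of chromosome 5 from 21884454 to 22344702, Trp73 (ENSMUSG00000029026) on the minus strand of chromosome 4 from 154056253 to 154140208 and Lhx1 (ENSMUSG00000018698) on the minus strand of chromosome 11 from 84518284 to 84525535. Lhx5 (ENSMUSG00000029595) lies on the plus strand of chromosome 5 from 120431699 to 120441223, Calb2 (ENSMUSG00000003657) on the minus strand of chromosome 8 from 110137502 to 110168210 and Ebf3 (ENSMUSG00000010476) on the minus strand of chromosome 7 from 137193673 to 137314445. All 6 are protein-coding, and how transcript estimates were summed to genes is not given in the sources used here. Exons of Reln, Trp73, Lhx5 and Ebf3 share 246, 280, 69 and 355 bases with annotated genes on the opposite strand, none of which is in the count table, and whether strand was used in counting is not given in the sources used here.

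Lhx1 and Ebf3 were the pair of highest correlation over libraries, and Reln and Trp73 were each called in 1 comparison. Trp73 has 2 promoters, which are described below but not printed. The windows around the transcription start of Lhx1, Ebf3 and Reln are shown. Each runs 5′ to 3′ from 250 bases before to 50 bases after the RefSeq start (GRCm38.p6), with matches to the homeodomain core TAAT, the E-box CANNTG and the EBF motif (TCCC, any 2 bases, GGGA), on either strand, in capitals.
Lhx1, chr11:84525485-84525784, minus strand: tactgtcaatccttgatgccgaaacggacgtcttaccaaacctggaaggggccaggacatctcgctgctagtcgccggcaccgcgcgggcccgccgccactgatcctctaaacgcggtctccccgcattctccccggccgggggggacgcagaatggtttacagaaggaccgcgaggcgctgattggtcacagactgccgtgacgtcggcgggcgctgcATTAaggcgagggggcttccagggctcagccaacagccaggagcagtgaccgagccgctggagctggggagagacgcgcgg
Ebf3, chr7:137314396-137314695, minus strand: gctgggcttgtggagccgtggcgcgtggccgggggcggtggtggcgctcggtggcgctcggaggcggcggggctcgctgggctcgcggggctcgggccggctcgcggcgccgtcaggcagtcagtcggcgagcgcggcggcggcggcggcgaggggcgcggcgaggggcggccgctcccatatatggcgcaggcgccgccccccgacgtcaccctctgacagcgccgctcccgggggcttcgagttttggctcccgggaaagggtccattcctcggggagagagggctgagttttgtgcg
Reln, chr5:22344656-22344955, minus strand: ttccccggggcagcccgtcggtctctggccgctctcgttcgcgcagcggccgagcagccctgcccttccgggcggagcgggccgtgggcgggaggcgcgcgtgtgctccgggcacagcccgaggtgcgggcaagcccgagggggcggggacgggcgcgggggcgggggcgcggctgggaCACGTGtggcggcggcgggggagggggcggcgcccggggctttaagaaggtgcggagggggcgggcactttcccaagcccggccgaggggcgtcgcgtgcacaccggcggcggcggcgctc

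The Lhx1 window held 1 TAAT core and no E-box, the Reln window 1 E-box and no TAAT core, and the Ebf3 window neither, while none of the 3 held the EBF motif. Of 32851 promoters of the same length, 58.0% held TAAT, 72.3% CANNTG and 0.904% the EBF motif. What the 3 windows had in common was base composition: G and C made up 65.7% of the Lhx1, 77.0% of the Ebf3 and 80.7% of the Reln window, with 31, 46 and 47 CpG sites where the median promoter had 7. The GC box GGGCGG, which 35.7% of promoters held, occurred 6 times in the Reln window, 3 times in that of Ebf3 and not in that of Lhx1. Trp73 has a start at each of 2 promoters of the same set. The upstream one held 77.7% G and C, 39 CpG sites and 1 E-box. The one inside the gene held 57.7% G and C, 6 CpG sites and 2 E-boxes, so it did not share the high CpG count. These matches describe letters in a window and say nothing of binding.

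**Figure D1:**
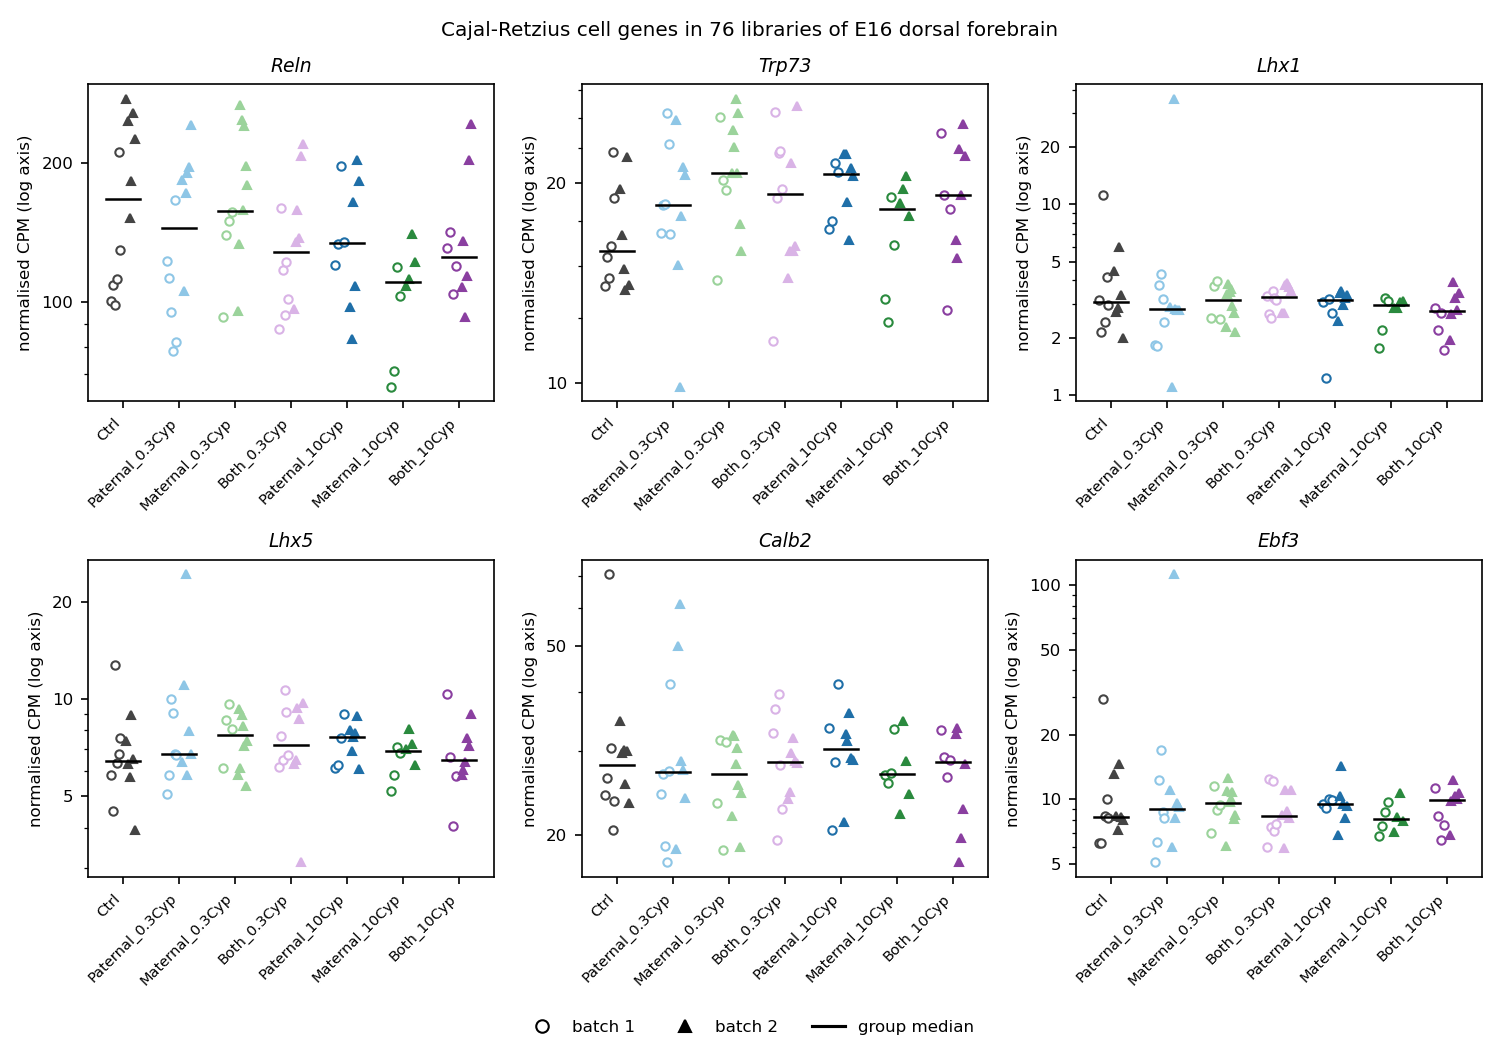
Normalised CPM (log axis) of the 6 members in 76 libraries by group, with 1 point per library, open circles for batch 1, filled triangles for batch 2 and a line at the group median. Most libraries of all groups overlap, and for Lhx1, Lhx5 and Ebf3 the highest point is Paternal_0.3Cyp replicate 9 and the next is Ctrl replicate 3.

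Few members differed from Ctrl after parental exposure. In Maternal_10Cyp, Reln fell and the other 5 members did not pass the test (1 of 6 called, where 40.8% of all genes tested were called, 20.4% higher and 20.4% lower). In Maternal_0.3Cyp, Trp73 rose (1 of 6, where 23.7% of genes were called, 10.9% higher and 12.8% lower). No member passed in Paternal_0.3Cyp, where 27.6% of genes were called (15.4% higher, 12.2% lower), in Both_0.3Cyp (22.3%, 10.5% higher and 11.8% lower), in Paternal_10Cyp (21.5%, 10.7% higher and 10.8% lower) or in Both_10Cyp (3.91%, 2.34% higher and 1.58% lower), by edgeR's quasi-likelihood test with Benjamini-Hochberg adjustment. At an unadjusted p under 0.05 there were 2 members in Paternal_0.3Cyp, Lhx5 and Ebf3, and 0 in Both_0.3Cyp, Paternal_10Cyp and Both_10Cyp, and with DESeq2 no member was called in these 4 groups. The median log2 fold change of the 6 members ran from -0.26 in Maternal_10Cyp to 0.26 in Paternal_0.3Cyp, where the median of all genes lay between -0.013 and 0.011. Without Ctrl replicate 3 and Paternal_0.3Cyp replicate 9 the members' medians ran from -0.051 in Maternal_10Cyp to 0.15 in Paternal_10Cyp, and that of Paternal_0.3Cyp was 0.041. All 6 comparisons use the same 12 Ctrl libraries.

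**Figure D2:**
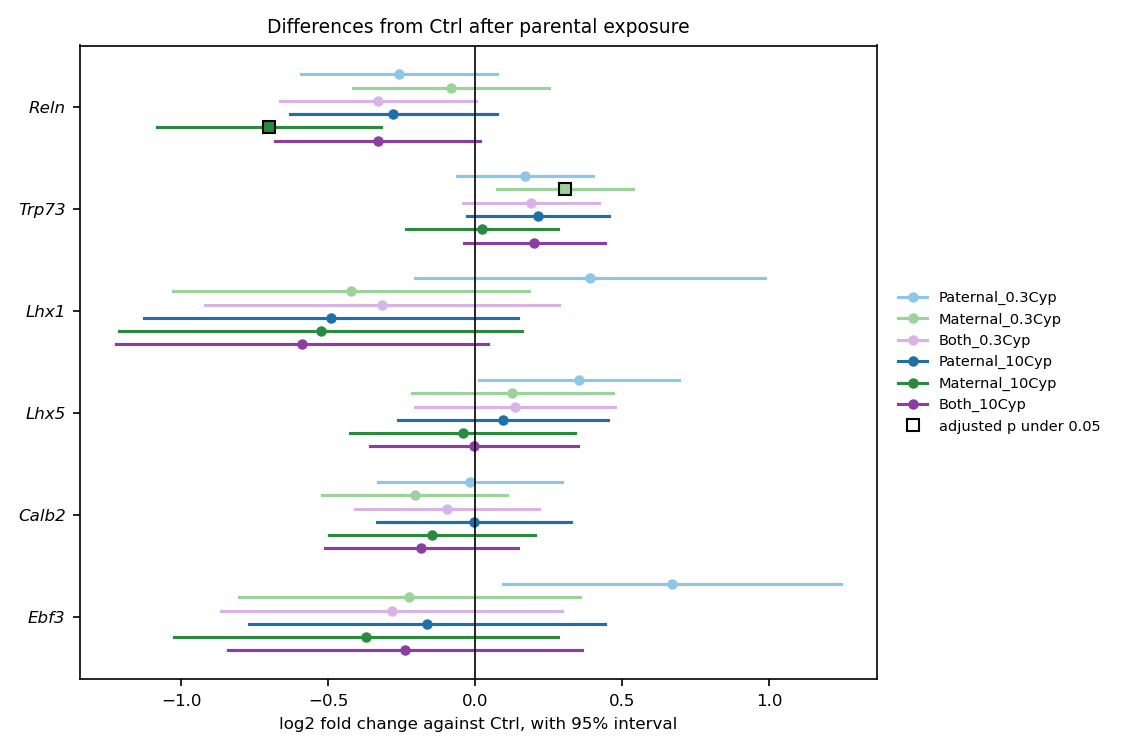
Log2 fold change against Ctrl (x axis) of each member in the 6 exposed groups, with 95% intervals and squares for an adjusted p under 0.05. Of the 36 values, 2 are called (Reln in Maternal_10Cyp and Trp73 in Maternal_0.3Cyp), and the intervals of Lhx1 and Ebf3 are the widest.

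Reln, the gene for reelin, was lower where the mother alone had received dose 10. The Ctrl libraries ranged from 98.7 to 275 normalised CPM with a median of 167, and the 8 Maternal_10Cyp libraries from 65.7 to 141 with a median of 110. All 8 lay below the Ctrl mean of 175, 2 of them below every Ctrl library, while 5 of the 12 Ctrl libraries were at or below the highest of the 8, so that the groups overlapped. The log2 fold change was -0.70 ± 0.19 (SE, n = 8 against 12, edgeR adjusted p = 0.00278), a level 0.614 times that of Ctrl. In bulk tissue, fewer cells of a type and less RNA per cell cannot be told apart.

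Batch mattered for Reln more than for any other member: it was 1.39-fold higher in batch 2 than in batch 1 (log2 0.47 ± 0.096, edgeR adjusted p = 0.000222). It was the 1 member of 6 called for batch, where 25% of all genes were called (12.7% higher and 12.3% lower in batch 2). Ctrl libraries averaged 127 ± 42.5 CPM in batch 1 and 223 ± 47.1 in batch 2 (SD, n = 6 and 6). Maternal_10Cyp libraries averaged 89.8 ± 25.7 in batch 1 and 121 ± 14.4 in batch 2 (SD, n = 4 and 4), below Ctrl in both. Within batch 2 no Maternal_10Cyp library (109 to 141 CPM) reached the lowest Ctrl library (152), and the difference was -0.88 ± 0.27 (edgeR adjusted p = 0.00968, where 33.2% of all genes were called). Within batch 1 the ranges overlapped and the difference was -0.50 ± 0.26 (edgeR adjusted p = 0.252), which did not pass, where 0.133% of all genes were called within that batch, and the 2 batches' differences were not shown to be unequal (edgeR adjusted p = 0.918). In the same fit Reln was also lower within batch 2 in Paternal_10Cyp (-0.67 ± 0.23, edgeR adjusted p = 0.0356, with 18.6% of all genes called) and at -0.58 ± 0.23 in Both_10Cyp (edgeR adjusted p = 0.0675, with 18.4% called), and at 0.21 ± 0.26 and -0.031 ± 0.26 within batch 1, where 0.00697% and 0% of genes were called.

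In the other groups the medians of Reln were 145 CPM in Paternal_0.3Cyp, 157 in Maternal_0.3Cyp, 128 in Both_0.3Cyp, 134 in Paternal_10Cyp and 125 in Both_10Cyp, and each range overlapped that of Ctrl. Their log2 fold changes lay between -0.33 and -0.082, with edgeR adjusted p from 0.137 to 0.745. All 6 exposed groups therefore had a mean below Ctrl, and 1 of them passed.

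The Reln transcript, at 11699 bases, is longer than those of 98.6% of the genes in the table, and Reln moved with a property of the libraries that concerns long transcripts. For each library, the slope of log2 CPM (relative to the gene's mean) on log2 transcript length over all genes had a median of 0.0985 in Ctrl and of -0.070 in Maternal_10Cyp, the lowest of the 7 groups, which is to say that long transcripts took a smaller share of the counts there. The ranges overlapped, from -0.041 to 0.158 in Ctrl and from -0.159 to 0.017 in Maternal_10Cyp. After group, batch and sex means were removed, Reln and this slope correlated over the 76 libraries (Pearson r = 0.59, permutation p = 1e-05, Spearman rho = 0.65, permutation p = 1e-05, the smallest these permutations can give, adjusted over 24 relations 6e-05 and 0.00024). Pearson r was 0.52 within batch 1, 0.64 within batch 2 and 0.64 without the 2 libraries of most extreme slope. Over the 76 libraries Reln also had r = 0.58 with the mean log2 CPM of the reelin signalling genes and 0.54 with that of deep-layer neuron markers. With offsets for transcript length and GC content, the difference between Maternal_10Cyp and Ctrl was -0.36 (edgeR adjusted p = 0.0595) and did not pass.

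**Figure D3:**
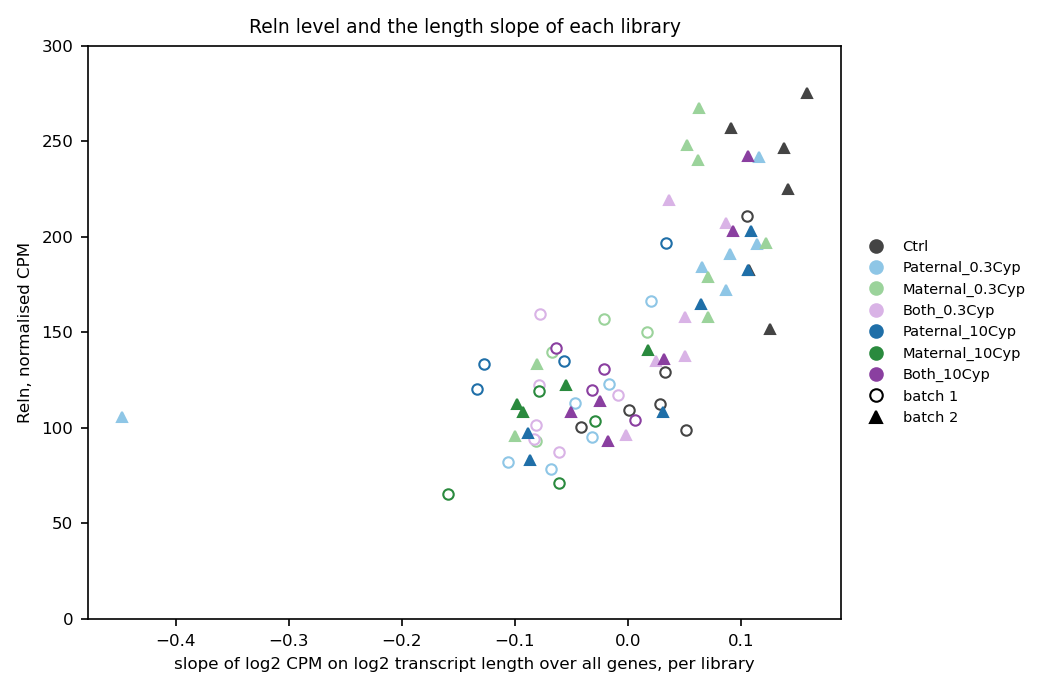
Reln level (y axis, normalised CPM) against the slope of log2 CPM on log2 transcript length (x axis) in 76 libraries, coloured by group, with open circles for batch 1 and filled triangles for batch 2. Libraries with a higher slope held more Reln, and the 8 Maternal_10Cyp libraries (dark green) lie between 65.7 and 141 CPM.

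Several cell type markers also differed between Maternal_10Cyp and Ctrl, where 20.4% of all genes were called higher and 20.4% lower. The summed level of 8 intermediate progenitor markers, among them Insm1 and Eomes, ran from 621 to 780 CPM in Maternal_10Cyp (median 663) and from 272 to 704 in Ctrl (median 455), and all 8 genes were called higher. They were also called higher in Paternal_0.3Cyp and Maternal_0.3Cyp (8 each), Both_0.3Cyp (6), Paternal_10Cyp (4) and Both_10Cyp (2), where Reln did not pass. Over all genes 15.4%, 10.9%, 10.5%, 10.7% and 2.34% were called higher there, in that order. In Maternal_10Cyp 5 of 9 radial glia markers were called higher and 1 lower, and 4 of 10 deep-layer markers were called lower and 0 higher. The 6 hippocampal and dentate markers, among them Nrp2 and Zbtb20, summed to 264 to 380 CPM (median 334) against 311 to 518 in Ctrl (median 445), with 4 of 6 called lower. Of 7 subplate markers, among them Nr4a2 and Nxph4, 4 were called lower (median 103 against 118 CPM). Interneuron markers, of cells that also make reelin, had medians of 1204 and 1191 CPM, with 1 of 15 called higher and 3 lower, and Gad1, Gad2, Dlx1 and Dlx2 were above 0 in every library. Meningeal markers, of the layer that touches the marginal zone, had medians of 199 and 303 CPM in overlapping ranges (142 to 568.2 and 159 to 676). The part of these cell populations in the Reln value was not tested.

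Trp73, which encodes p73, was higher where the mother alone had received dose 0.3. Its level ranged from 13.8 to 22.3 CPM in Ctrl (median 15.8) and from 14.3 to 26.7 in Maternal_0.3Cyp (median 20.7), where 10 of 12 libraries were above the Ctrl mean and 5 above the highest Ctrl library. The log2 fold change was 0.30 ± 0.12 (SE, n = 12 against 12, edgeR adjusted p = 0.0472), 1.24-fold. It lay at the threshold: leaving out 1 library ended the call in 16 of 24 cases, with log2 fold changes from 0.27 to 0.35 and edgeR adjusted p up to 0.099. Those libraries were Ctrl replicates 1, 2, 3, 4, 7, 8, 9, 10 and 12 and Maternal_0.3Cyp replicates 2, 5, 6, 7, 8, 9 and 10. Within batches it was 0.23 ± 0.18 in batch 1 and 0.35 ± 0.16 in batch 2, neither of which passed (edgeR adjusted p = 0.644 and 0.0893, with 0% and 21.1% of all genes called).

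In the other exposed groups Trp73 had medians of 18.5 CPM in Paternal_0.3Cyp, 19.3 in Both_0.3Cyp, 20.6 in Paternal_10Cyp, 18.2 in Maternal_10Cyp and 19.2 in Both_10Cyp. All were above the Ctrl median of 15.8, none passed, and the log2 fold changes ran from 0.023 in Maternal_10Cyp to 0.21 in Paternal_10Cyp, where 9 of 10 libraries exceeded the Ctrl mean. The lowest Trp73 level of all 76 libraries, 9.86 CPM, was in Paternal_0.3Cyp replicate 9. Trp73 followed the mean log2 CPM of the markers of the cortical hem, its tissue of origin, across libraries. Pearson r was 0.45 (permutation p = 8e-05, adjusted 0.00032) and Spearman rho 0.43 (permutation p = 0.00021). Pearson r was 0.49 within batch 1, 0.41 within batch 2 and 0.43 without the 2 libraries farthest from the median in hem markers. In Maternal_0.3Cyp, 4 of 14 hem markers were called higher and 0 lower (10.9% of all genes were called higher and 12.8% lower), and their sum had a median of 127 CPM (106 to 167) against 111 in Ctrl (85.4 to 130). Of the 14, 3 were also called higher in Paternal_0.3Cyp, 2 each in Paternal_10Cyp and Maternal_10Cyp and 1 each in Both_0.3Cyp and Both_10Cyp, where Trp73 did not pass. Over all genes 15.4%, 10.7%, 20.4%, 10.5% and 2.34% were called higher there, in that order. Called lower were 1 in Both_0.3Cyp and 1 in Maternal_10Cyp, where 11.8% and 20.4% of all genes were. The part of the hem markers in the Trp73 value was not tested.

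Lhx1 and Ebf3 were dominated by 2 libraries. Lhx1 ranged from 2.00 to 11.2 CPM in Ctrl (median 3.06) and from 1.104 to 35.7 in Paternal_0.3Cyp (median 2.81), and Ebf3 from 6.29 to 29.5 in Ctrl (median 8.32) and from 5.08 to 112 in Paternal_0.3Cyp (median 8.99). In both genes the highest value of Ctrl came from replicate 3 and that of Paternal_0.3Cyp from replicate 9, while the next values were 5.97 and 4.33 CPM for Lhx1 and 14.6 and 17.0 for Ebf3. Paternal_0.3Cyp replicate 9 held 725 counts of Lhx1 and 2278 of Ebf3, which put the levels at 12.2 and 12.8 times the median of the 71 libraries that were not high in diencephalon markers. In Ctrl replicate 3 the corresponding ratios were 3.83 and 3.37.

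The estimates for Paternal_0.3Cyp turned on these libraries. The value for Ebf3 was 0.67 ± 0.29 on the log2 scale (n = 12 in each group, edgeR adjusted p = 0.072), 0.95 without Ctrl replicate 3 (edgeR adjusted p = 0.0131) and -0.22 without Paternal_0.3Cyp replicate 9 (edgeR adjusted p = 0.331). Without those 2 libraries together it was 0.045 (edgeR adjusted p = 0.849), and with all 5 of the libraries named above left out -0.080 (edgeR adjusted p = 0.745). Lhx1 had 0.39 ± 0.30 (edgeR adjusted p = 0.332), 0.69 without Ctrl replicate 3 (edgeR adjusted p = 0.0708) and -0.56 without Paternal_0.3Cyp replicate 9, which passed as lower (edgeR adjusted p = 0.0144). Without those 2 libraries together Lhx1 had -0.28 and did not pass (edgeR adjusted p = 0.172). With all 5 left out it had -0.37, which did not pass either (edgeR adjusted p = 0.105). Within batch 2, which holds replicate 9, Ebf3 was at 1.39 ± 0.39, Lhx1 at 1.18 ± 0.40 and Lhx5 at 0.68 ± 0.24, all called (edgeR adjusted p = 0.0147, 0.036 and 0.041, where 16.6% of all genes were called). Within batch 1 they were at -0.26 ± 0.39, -0.59 ± 0.41 and -0.0091 ± 0.24, none of which passed, where 0.00697% of genes were called.

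In the 5 other exposed groups Lhx1 stayed within the Ctrl range in all but 4 libraries, which lay below it, and its medians ran from 2.75 CPM in Both_10Cyp to 3.28 in Both_0.3Cyp. Its log2 fold changes there were negative, from -0.59 to -0.32, against a Ctrl mean of 3.95 CPM and a Ctrl median of 3.06. Without Ctrl replicate 3 the Lhx1 values were -0.11 in Maternal_0.3Cyp, -6.9e-05 in Both_0.3Cyp, -0.16 in Paternal_10Cyp, -0.20 in Maternal_10Cyp and -0.29 in Both_10Cyp. Ebf3 had medians from 8.10 CPM in Maternal_10Cyp to 9.91 in Both_10Cyp and log2 fold changes from -0.37 to -0.16, none of which passed, and from -0.055 to 0.16 without Ctrl replicate 3. Ebf3 was the 1 member called in the joint test of the 6 exposed groups (edgeR adjusted p = 0.0408), in which 21.7% of all genes were called. No member was called there without Paternal_0.3Cyp replicate 9 or replicate 4, nor without Ctrl replicate 7, 8 or 12 or Maternal_10Cyp replicate 1, 5, 6 or 8. Lhx1 was called as well without any 1 of Paternal_0.3Cyp replicates 1, 2, 7, 8, 10, 11 and 12, and Reln as well without Maternal_0.3Cyp replicate 5. In the full set Reln and Lhx1 had edgeR adjusted p = 0.0712 and 0.0689, while DESeq2 called Lhx1 and Ebf3 (26% of all genes called) and limma voom with quality weights called Reln alone (39.7% called).

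Lhx5, the close relative of Lhx1, shared the 2 high libraries at a smaller scale. It ranged from 3.94 to 12.7 CPM in Ctrl (median 6.43), with replicate 3 the highest, and from 5.08 to 24.3 in Paternal_0.3Cyp (median 6.76), with replicate 9 the highest, 3.56 times the median of the 71 other libraries. Its log2 fold change in Paternal_0.3Cyp was 0.35 ± 0.17 (edgeR adjusted p = 0.109), 0.47 without Ctrl replicate 3, which passed (edgeR adjusted p = 0.0353), and 0.10 without Paternal_0.3Cyp replicate 9. Without those 2 libraries together it was 0.21 (edgeR adjusted p = 0.249), and without all 5 libraries high in diencephalon markers 0.19 (edgeR adjusted p = 0.372). In the 5 other exposed groups the medians were 6.49 to 7.74 CPM and the log2 fold changes -0.044 to 0.13, with 0 called, and 0.083 to 0.26 without Ctrl replicate 3.

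Calb2, the gene for calretinin, was likewise highest in Ctrl replicate 3 (70.6 CPM) and second highest in Paternal_0.3Cyp replicate 9 (61.0). The Ctrl range was 20.5 to 70.6 CPM (median 28.0), and group medians of the exposed groups ran from 26.8 to 30.3. No log2 fold change went past -0.21 (Maternal_0.3Cyp, ± 0.16, edgeR adjusted p = 0.334), and for Both_10Cyp it was -0.18 ± 0.16. Without Ctrl replicate 3 the 6 values ran from -0.020 to 0.20. In Paternal_0.3Cyp the value was -0.019 over all libraries (edgeR adjusted p = 0.942). It was 0.037 without Ctrl replicate 3 and Paternal_0.3Cyp replicate 9 together (edgeR adjusted p = 0.857). Without all 5 libraries high in diencephalon markers it was 0.018 (edgeR adjusted p = 0.941). Unlike Lhx1, Lhx5 and Ebf3, Calb2 was lowest of all libraries in Paternal_0.3Cyp replicate 4 (17.5 CPM), a library that ranked 3 in Ebf3.

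**Figure D4:**
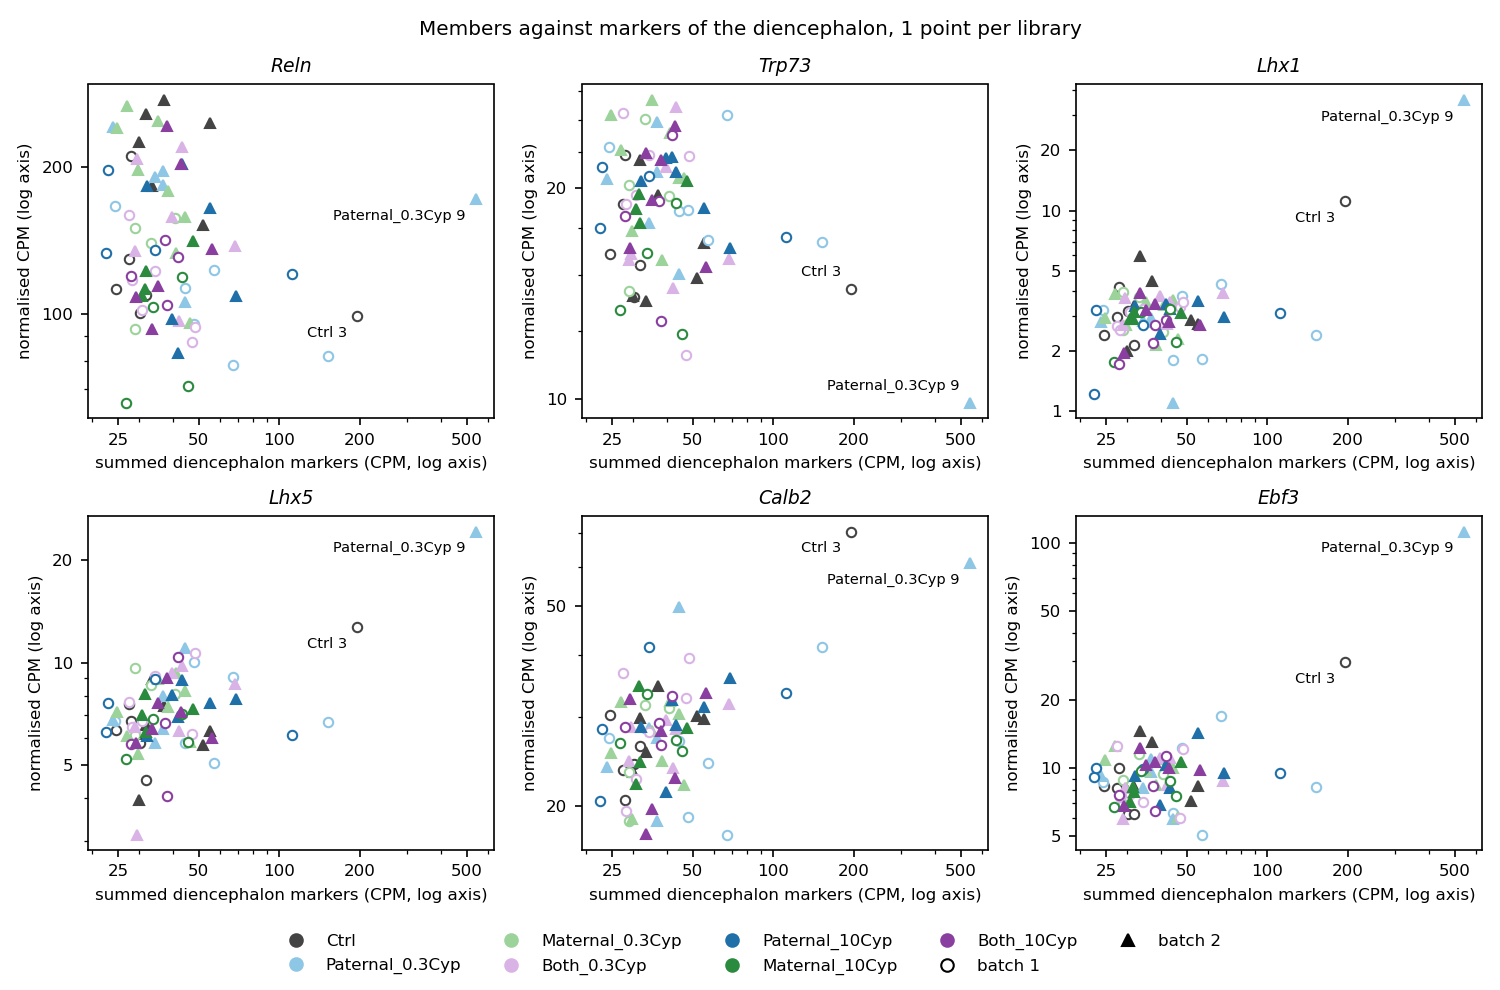
Level of each member (y axis, normalised CPM, log axis) against the summed level of 15 diencephalon markers (x axis, CPM, log axis) in 76 libraries, coloured by group, with open circles for batch 1 and triangles for batch 2. Paternal_0.3Cyp replicate 9 and Ctrl replicate 3 lie far to the right and are the highest in Lhx1, Lhx5, Calb2 and Ebf3, but not in Reln or Trp73.

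In those 2 libraries most diencephalon markers were high. Tcf7l2, a Wnt pathway factor strongly expressed in the thalamus, stood at 239 CPM in Paternal_0.3Cyp replicate 9 and 117 in Ctrl replicate 3, against a median of 10.51 over all libraries. Irx1 was at 34.7 and 7.46 CPM (median 0.941) and Foxb1 at 11.04 and 7.61 (median 0.321), while Gbx2, another thalamic gene, was higher in Ctrl replicate 3 (19.8 CPM) than in replicate 9 (12.3). The latter library also held the most Tfap2b (86.2 CPM, median 0.509) and Tal1 (30.1, median 1.99), and the most of the meningeal genes Col1a1 and Col1a2. Of the defining markers, Irx2, Irx5, Olig3, Foxb1, Pou4f1 and Tfap2b were at 0 in 1 to 7 libraries, and the others in none. The correlations that follow use the mean log2 CPM of the diencephalon markers, not their sum, after group, batch and sex means were removed. Over all libraries, this mean and Ebf3 had Pearson r = 0.71 (permutation p = 1e-05, adjusted 6e-05) and Spearman rho = 0.30 (permutation p = 0.00849, adjusted 0.0408). Without the 2 libraries r was 0.25, so that the size of Pearson r rests on them, while the rank correlation over all 76 passed. Spearman rho was 0.29 for Lhx1, 0.28 for Lhx5 and 0.36 for Calb2 (adjusted permutation p = 0.042, 0.0472 and 0.0128). In Pearson r, Lhx1 gave 0.71 and 0.26, Lhx5 0.55 and 0.21, Calb2 0.53 and 0.23, Reln -0.23 and -0.33, and Trp73 -0.37 and -0.14, with and without them.

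No member was called in any comparison of exposed groups with each other. For dose 10 against 0.3, 0.0628% of genes were called after paternal, 0% after maternal and 0.00697% after joint exposure, and for mother against father 0.00697% at dose 0.3 and 0% at dose 10, so that these comparisons gave almost no calls for any gene (edgeR). At an unadjusted p under 0.05, there were 2 members each for paternal dose (Lhx1 at -0.88 ± 0.32 and Ebf3 at -0.83 ± 0.30), maternal dose (Reln at -0.62 ± 0.19 and Trp73 at -0.28 ± 0.13) and mother against father at dose 0.3 (Ebf3 at -0.89 ± 0.29 and Lhx1 at -0.81 ± 0.30). There was 1 for mother against father at dose 10 (Reln, -0.42 ± 0.20) and 0 for joint exposure, and DESeq2 called none in any of these. Without Paternal_0.3Cyp replicate 9, Lhx1 and Ebf3 were at 0.090 and 0.067 for the paternal dose and at 0.18 and 0.036 for mother against father at dose 0.3. Under limma voom with quality weights Reln was called for the maternal dose, where that tool called 2.94% of all genes, and for non-additivity at dose 10, where it called 42.6%.

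Non-additivity asks whether the group with both parents exposed departed from the sum of the separate maternal and paternal differences. For Reln at dose 10 it did so by 0.65 ± 0.26 (SE, 2-sided edgeR adjusted p = 0.0565), since the Both_10Cyp difference of -0.33 was smaller than the maternal one of -0.70 alone, and 0 of 6 members were called where 27.2% of genes were (14% higher and 13.3% lower). Leaving out 1 of Ctrl replicate 1, Maternal_10Cyp replicate 3, Paternal_10Cyp replicates 3 and 9 or Both_10Cyp replicates 5, 7 and 8 brought Reln past the threshold. At dose 0.3 no member and 0% of genes were called (edgeR; 0 members at an unadjusted p under 0.05 and 0 by DESeq2). Between male and female embryos no member was called (0.0907% of genes called, 0.0418% higher and 0.0488% lower in males, edgeR; 0 members at an unadjusted p under 0.05 and 0 by DESeq2), with log2 differences from -0.075 in Trp73 to 0.094 in Ebf3. The joint test of batch by exposure called no member and 0% of genes (edgeR; 0 members at an unadjusted p under 0.05 and 0 by DESeq2).

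The members did not vary as 1 group. After group, batch and sex means were removed, 15 pairs were compared over 76 libraries, and Lhx1 with Ebf3 stood out (Pearson r = 0.88, Spearman rho = 0.73, permutation p = 1e-05 for each, the smallest these permutations can give, adjusted 5e-05). Lhx5 went with Ebf3 (r = 0.70, rho = 0.61) and with Lhx1 (r = 0.62, rho = 0.53), with the same permutation p-values. Without the 2 libraries farthest from the median of the first gene, r was 0.69 for Lhx1 with Ebf3, 0.62 for Lhx5 with Ebf3 and 0.36 for Lhx1 with Lhx5. Within batches 1 and 2 the r of Lhx1 with Ebf3 was 0.74 and 0.94. Calb2 with Ebf3 (r = 0.43, permutation p = 0.00058, adjusted 0.00167) fell to 0.077 without Ctrl replicate 3 and Paternal_0.3Cyp replicate 9, and Calb2 with Lhx1 (0.36) to -0.044, so that the Pearson r of both rests on those libraries, although Calb2 with Ebf3 also passed by rank (rho = 0.28, adjusted permutation p = 0.0232). Lhx5 with Calb2 had r = 0.46 (permutation p = 8e-05, adjusted 3e-04) and rho = 0.32 (adjusted 0.00992), with r = 0.40 without the 2 libraries farthest from the median of Lhx5 and 0.29 in the 71 libraries not high in diencephalon markers. Reln went with Trp73 (r = 0.38, permutation p = 0.00067, adjusted 0.00167; rho = 0.44, permutation p = 8e-05), with r = 0.50 in batch 1 and 0.30 in batch 2, and with Ebf3 by rank (rho = 0.25, permutation p = 0.0301, adjusted 0.0451; r = 0.14, adjusted 0.393).

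The relation of Trp73 with Ebf3 also depended on the libraries used. The pair had r = -0.023 over all libraries (permutation p = 0.843) but rho = 0.37 (permutation p = 0.00108, adjusted 0.00324), and Paternal_0.3Cyp replicate 9 was highest in Ebf3 and lowest in Trp73. Within batch 1 r was 0.36, and within batch 2, which holds that library, -0.28. Without it and Both_0.3Cyp replicate 1, r was 0.33. Without the 5 libraries high in diencephalon markers, r was 0.52 for Trp73 with Ebf3, 0.45 with Lhx5 and 0.37 with Lhx1, and 0.40 for Reln with Ebf3. In those 71 libraries Calb2 had -0.057 with Lhx1 and 0.0065 with Trp73.

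**Figure D5:**
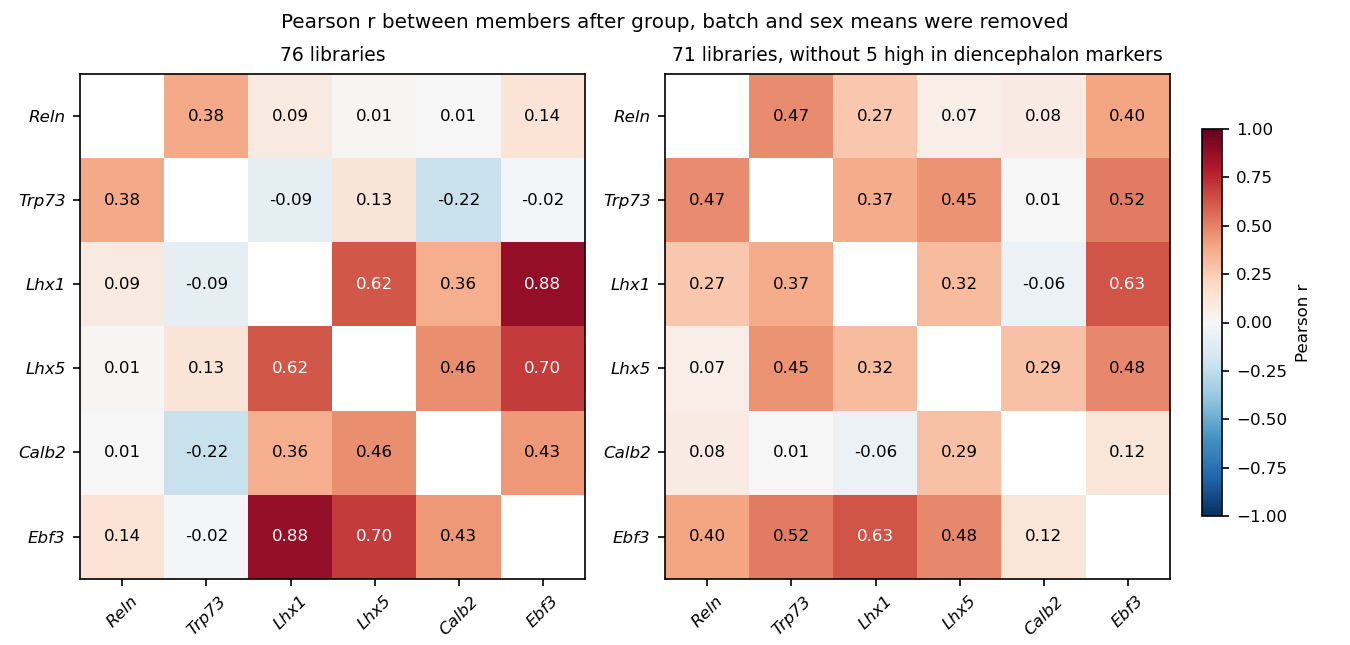
Pearson r between each pair of members over all 76 libraries (left) and over the 71 libraries that were not high in diencephalon markers (right), after group, batch and sex means were removed, on a colour scale from -1 to 1. Lhx1 with Ebf3 falls from 0.88 to 0.63 and Trp73 with Ebf3 rises from -0.023 to 0.52.

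The genes whose library-to-library pattern was most like each member's differed from member to member, given here as a description over 76 libraries that share depth and dissection. Reln was most like Lrp1 (r = 0.80), an endocytic receptor, Sptan1 (0.77), a spectrin, Dop1b (0.77), Cacna1e (0.77), a calcium channel subunit, and Tenm2 (0.76), a teneurin. All 5 have transcripts of 7340 to 14921 bases, longer than those of at least 91.6% of genes. Trp73 was most like Fezf2 (0.56), a deep-layer neuron factor, Rab3d (0.55), Neurod1 (0.55), Podxl (0.54) and Dmrt3 (0.54), the latter a medial patterning gene. Calb2 was most like the cerebellins Cbln1 (0.78) and Cbln2 (0.77), then Camk2n1 (0.74), Cntn4 (0.74) and Synpr (0.74).

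Ebf3 was most like its relative Ebf2 (r = 0.79), then Vat1 (0.77), Slc17a6 (0.72), the vesicular glutamate transporter VGLUT2, Tmem163 (0.70) and Plcb4 (0.69). Lhx1 was most like Vat1 (0.75), Zfhx4 (0.74), Prkar2a (0.72), Ebf2 (0.71) and Slc17a6 (0.71), so that Vat1, Ebf2 and Slc17a6 were among the 5 nearest of both. Without the 5 libraries high in diencephalon markers, the r of Slc17a6 fell to 0.32 with Ebf3 and to 0.30 with Lhx1, and that of Ebf2 with Ebf3 to 0.56, still the first. Lhx5 was most like Dlk1 (0.69), the homeobox genes Hmx3 (0.66) and Hmx2 (0.63), Arxes2 (0.63) and Hap1 (0.62), and in the 71 libraries Hmx3 (0.61) and Hmx2 (0.56) were the nearest.

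For the mean of the 6 standardised members, the nearest genes were Tmem163 (r = 0.71), Plcb4 (0.67), Slc17a6 (0.65), Ebf2 (0.65) and Peg3 (0.64). In the 71 libraries not high in diencephalon markers they were Samd3 (0.62), Kit (0.55), a receptor tyrosine kinase, Epb41l4a (0.54), Kcnj5 (0.54), a potassium channel subunit, and Tmem163 (0.52). There the gene nearest to Trp73 was Nhlh2 (0.58), a helix-loop-helix factor of Cajal-Retzius cells.

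The 12 other genes listed for Cajal-Retzius cells were all present, each above 0 in every library. Against Ctrl, 2 of the 12 were called higher in Paternal_0.3Cyp and 1 in Maternal_0.3Cyp (edgeR). Lower were 1 in Paternal_10Cyp and 2 in Maternal_10Cyp, and none were called in Both_0.3Cyp or Both_10Cyp. Over all genes 27.6%, 23.7%, 21.5%, 40.8%, 22.3% and 3.91% were called in either direction, in the same order. No total exceeded that share, while the 2 of 12 higher in Paternal_0.3Cyp lay near the 15.4% of all genes called higher there. The median log2 fold changes of the 12 lay between -0.083 and 0.032. In Maternal_10Cyp the 2 genes were Ndnf, a secreted neurotrophic factor of marginal zone neurons (-0.61 ± 0.18, edgeR adjusted p = 0.00481), and Cacna2d2, a calcium channel subunit (-0.56 ± 0.16, edgeR adjusted p = 0.0039). Nhlh2 rose in Paternal_0.3Cyp (0.41 ± 0.10, edgeR adjusted p = 0.00465), as did Mab21l1 (0.62 ± 0.21, edgeR adjusted p = 0.0225), whose highest library was Paternal_0.3Cyp replicate 9 with 52.6 CPM where the second highest of all had 14.0. Cxcr4, the receptor for the meningeal chemokine Cxcl12, rose in Maternal_0.3Cyp (0.22 ± 0.068, edgeR adjusted p = 0.0167). Ebf2 had 0.57 ± 0.24 in Paternal_0.3Cyp (edgeR adjusted p = 0.0632), with 20.9 CPM in replicate 9 and 5.87 in the next library.

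Downstream of reelin, 34 genes of its processing and signalling were measured. In Maternal_10Cyp 7 were called higher and 9 lower, in Paternal_0.3Cyp 3 and 8, in Maternal_0.3Cyp 4 and 8, in Both_0.3Cyp 4 and 4, in Paternal_10Cyp 4 and 5, and in Both_10Cyp 0 and 1. Over all genes the shares called were 40.8%, 27.6%, 23.7%, 22.3%, 21.5% and 3.91% in that order. Their median log2 fold changes ran from -0.040 to -0.017, and the median over all genes from -0.013 to 0.011. Of the receptors, Vldlr fell in Paternal_0.3Cyp, Maternal_0.3Cyp, Both_0.3Cyp and Maternal_10Cyp, by up to -0.41 ± 0.089 in the last (edgeR adjusted p = 0.000351), while the receptor gene Lrp8, named for its role, was at -0.087 ± 0.078 there (edgeR adjusted p = 0.386) and the adaptor gene Dab1, likewise named for its role, at -0.11 ± 0.073 (edgeR adjusted p = 0.214). Itga3, the integrin alpha 3 subunit, fell in 5 of the 6 groups, by -0.48 ± 0.12 in Maternal_10Cyp (edgeR adjusted p = 0.000893), and was at -0.23 ± 0.10 in Both_0.3Cyp (edgeR adjusted p = 0.0872).

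Further inside the pathway, Pik3r1, a regulatory subunit of PI3 kinase, fell in all exposed groups other than Both_10Cyp, by -0.51 ± 0.10 in Maternal_10Cyp (edgeR adjusted p = 0.000238). Pafah1b1, which encodes the dynein regulator Lis1, fell in 4 groups by small amounts, -0.16 ± 0.041 in Maternal_10Cyp (edgeR adjusted p = 0.0016). Rising in 5 groups each were Rnf7, a RING protein that acts with Cul5 in the turnover of phosphorylated Dab1, by 0.34 ± 0.066 in Maternal_10Cyp (edgeR adjusted p = 0.000139), and Nde1, a partner of Lis1, by 0.51 ± 0.13 (edgeR adjusted p = 0.00138). In Both_10Cyp these were at 0.17 ± 0.062 and 0.33 ± 0.12 and did not pass (edgeR adjusted p = 0.0771 and 0.0767). Of the 34 genes, 10 were called in the joint test, where 21.7% of all genes were.

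Of 17 relatives and cofactors of the members that could be tested, 7 were called in Paternal_0.3Cyp (3 higher, 4 lower), 6 in Maternal_10Cyp (4 higher, 2 lower), 3 in Both_0.3Cyp, 1 each in Maternal_0.3Cyp and Paternal_10Cyp and 0 in Both_10Cyp. Over all genes 27.6%, 40.8%, 22.3%, 23.7%, 21.5% and 3.91% were called in that order. Ldb2, a cofactor that bridges LIM homeodomain proteins, fell in all groups other than Both_10Cyp, by -0.35 ± 0.077 in Paternal_0.3Cyp (edgeR adjusted p = 0.00266), and is also counted among the deep-layer markers. Lhx9, a LIM homeodomain gene of the thalamus, rose in Paternal_0.3Cyp (0.77 ± 0.25, edgeR adjusted p = 0.0168) and passed in no other group, with its highest levels in Paternal_0.3Cyp replicate 9 (50.1 CPM) and Ctrl replicate 3 (24.8 CPM). Lhx6, a gene of migrating interneurons, fell there (-0.24 ± 0.073, edgeR adjusted p = 0.0126). Lmo1 rose in Paternal_0.3Cyp (0.27 ± 0.083, edgeR adjusted p = 0.0138) and in Maternal_10Cyp (0.33 ± 0.093, edgeR adjusted p = 0.00353), as did the cortical progenitor gene Lhx2 (0.30 ± 0.11 and 0.38 ± 0.12, edgeR adjusted p = 0.0301 and 0.00737). Ldb1 rose in Maternal_10Cyp (0.15 ± 0.052, edgeR adjusted p = 0.0167).

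The sources of Cajal-Retzius cells were represented by 14 markers of the cortical hem and 8 of the septum and anterior forebrain. Hem markers, led by Emx2 and Rspo3, had median sums of 111 CPM in Ctrl and 118 to 130 in the exposed groups, and Wnt3a, Wnt2b and Lmx1a, which define the hem, were above 0 in every library, at means of 1.26, 2.93 and 2.35 CPM. Septal and anterior markers, led by Six3 and Zic4, had medians of 123 CPM in Ctrl and 127 to 144 in the exposed groups, were highest in Ctrl replicate 3 (255 CPM), and gave 1 call in all, lower in Paternal_10Cyp. Of the 15 diencephalon markers, 10 were called higher in Paternal_0.3Cyp, where 15.4% of all genes were called higher, and 1 was called lower in each of the 5 other exposed groups. In Paternal_0.3Cyp replicate 9 alone held 539.5 summed CPM against a group median of 44.3, and replicates 4 and 6 were high as well. No count of these markers was made without those libraries. Embryonic globins, a sign of younger blood, stood more than 3 median absolute deviations above the median in Paternal_0.3Cyp replicates 3 and 4 and Both_10Cyp replicates 7 and 8, and the sum reached 82.6 CPM in replicate 4 where the Ctrl median was 0.185. Without these 4 libraries the Reln difference in Maternal_10Cyp was -0.71 (edgeR adjusted p = 0.0019). None of the 4 is in Maternal_10Cyp or Ctrl, so their removal acts only through the shared fit and cannot test younger embryos in that comparison. Maternal_10Cyp had the highest group median of embryonic globins, 1.38 CPM (0.756 to 1.68), where Ctrl ranged from 0 to 1.40. Medians in the 5 other exposed groups ran from 0.736 to 0.963 CPM. With the globin ratio as a covariate the Reln difference in Maternal_10Cyp was -0.65 (edgeR adjusted p = 0.0148). The part of embryo age in the Reln value was not tested.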

How the data were processed

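For the 76 RNA-seq libraries the authors deposited 1 table of estimated counts per gene, in whole numbers, which was used unchanged. The submitters' processing notes name the build mm10, the quantifier Salmon (1.10.1) and the read trimmer Trim Galore (0.5.0). Library totals ranged from 17735597 to 41419156 counts, and 0 columns were left unused. Of 14823 gene IDs 14810 had a symbol, and 484 genes were removed by edgeR's filterByExpr.

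All 76 libraries entered 1 edgeR (4.0.16, R 4.3.3) quasi-likelihood fit with group, batch and sex, TMM normalisation and Benjamini-Hochberg adjustment over 14339 genes (threshold 0.05); log2 fold changes come from it with a 95% interval. The fit was tested on simulated data. Alternatives used DESeq2 1.42.0, limma 3.58.1 and sva 3.50.0. Correlations used 1e+05 permutations and log2 CPM with a prior count of 0.5, after group, batch and sex means were removed. For a list of markers, the value correlated was the mean over its genes of log2 of CPM plus 0.5. Libraries high in a list were found by the same mean.

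All members are named, as are up to 6 genes of lowest joint p from each related list and the 5 genes most correlated with each member and with their mean, with the leading genes of lists of other cell types. Members and lists were chosen with earlier results of these data known. The transcript length and GC offsets, and the removal of Ctrl replicate 3 and Paternal_0.3Cyp replicate 9 together, were chosen after seeing the data. Promoters are RefSeq's (GRCm38.p6), found for 4 of 6 members, and gene positions and transcript lengths are from GENCODE on GRCm38.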

Additional observations from a re-analysis of the deposited data

Results flagged for a closer look

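In Paternal_10Cyp (n = 10), Lhx1 in replicate 2 was at 1.23 normalised CPM, far below the nearest library of the group at 2.44. In the same group, Ebf3 in replicate 7 was at 14.3 CPM, far above the nearest library at 10.4. These were 2 of 18 combinations of member and group checked for a library far from the others, where chance flags about 1 in 20.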

How the results depend on the processing

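Of 576 member values under 16 other settings, 495 kept their direction and their side of the threshold, 67 changed sign, 13 were no longer called and 1 became called, and 219 of 248 counts of called members did not move. None of the sign changes concerned the 2 called values, Reln in Maternal_10Cyp and Trp73 in Maternal_0.3Cyp. Replicate numbers did not pair the libraries: 48 of 210 same-numbered pairs correlated above 0.1, and in 0 pairs of groups did all. Leaving out libraries high in cortical hem markers gave no value, since there were 0 such libraries. The cause of the changes that follow was not tested.

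With DESeq2 size factors, members called numbered 0 (Maternal_0.3Cyp), and Trp73 in Maternal_0.3Cyp was at 0.30 (adjusted p = 0.0502). Without the filter on low counts, members called numbered 0 (Maternal_0.3Cyp), and Trp73 in Maternal_0.3Cyp was at 0.30 (adjusted p = 0.0527). Without the batch term, members called numbered 0 (Maternal_0.3Cyp), and the log2 fold change turned sign for Both_10Cyp (Lhx5 0.0028), and Trp73 in Maternal_0.3Cyp was at 0.31 (adjusted p = 0.0501). With the replicate block, members called numbered 0 (Maternal_10Cyp and joint test of the 6 exposed groups), and the log2 fold change turned sign for Maternal_0.3Cyp (Reln 0.037), and Reln in Maternal_10Cyp was at -0.42 (adjusted p = 0.0621). In batch 1 alone, members called numbered 0 (Maternal_0.3Cyp, Maternal_10Cyp and joint test of the 6 exposed groups), and the log2 fold change turned sign for Paternal_0.3Cyp (Lhx1 -0.55 and Ebf3 -0.24), Maternal_0.3Cyp (Reln 0.11), Paternal_10Cyp (Reln 0.25 and Lhx5 -0.043) and Maternal_10Cyp (Trp73 -0.14), and Trp73 in Maternal_0.3Cyp was at 0.24 (adjusted p = 0.568), and Reln in Maternal_10Cyp was at -0.48 (adjusted p = 0.180). In batch 2 alone, members called numbered 1 (Paternal_0.3Cyp) and 0 (Maternal_0.3Cyp and joint test of the 6 exposed groups), and the log2 fold change turned sign for Paternal_0.3Cyp (Calb2 0.27), Paternal_10Cyp (Calb2 0.080 and Ebf3 0.013), Maternal_10Cyp (Lhx5 0.15) and Both_10Cyp (Lhx5 0.11 and Ebf3 0.0029), and Ebf3 in Paternal_0.3Cyp was at 1.35 (adjusted p = 0.0427), and Trp73 in Maternal_0.3Cyp was at 0.34 (adjusted p = 0.1003). After thinning counts to a common depth, members called numbered 0 (Maternal_0.3Cyp), and Trp73 in Maternal_0.3Cyp was at 0.29 (adjusted p = 0.0589). Without the libraries high in diencephalon markers, members called numbered 0 (Maternal_0.3Cyp and joint test of the 6 exposed groups) and 1 (non-additivity at dose 10), and the log2 fold change turned sign for Paternal_0.3Cyp (Lhx1 -0.37, Calb2 0.018 and Ebf3 -0.080), Maternal_0.3Cyp (Ebf3 0.056), Both_0.3Cyp (Calb2 0.090), Paternal_10Cyp (Calb2 0.16 and Ebf3 0.098), Maternal_10Cyp (Trp73 -0.0013, Lhx5 0.065 and Calb2 0.039) and Both_10Cyp (Lhx5 0.11 and Ebf3 0.048), and Trp73 in Maternal_0.3Cyp was at 0.28 (adjusted p = 0.0667). Without the libraries high in embryonic globins, members called numbered 1 (non-additivity at dose 10) and 0 (joint test of the 6 exposed groups), and the log2 fold change turned sign for Paternal_0.3Cyp (Calb2 0.10). With the globin ratio as a covariate, members called numbered 0 (Maternal_0.3Cyp and joint test of the 6 exposed groups), and the log2 fold change turned sign for Paternal_0.3Cyp (Calb2 0.16), Both_0.3Cyp (Calb2 0.067), Paternal_10Cyp (Calb2 0.082) and Maternal_10Cyp (Trp73 -0.068 and Calb2 0.046), and Trp73 in Maternal_0.3Cyp was at 0.24 (adjusted p = 0.190). With 2 surrogate variables, members called numbered 0 (Maternal_0.3Cyp and joint test of the 6 exposed groups), and the log2 fold change turned sign for Paternal_0.3Cyp (Calb2 0.19), Maternal_0.3Cyp (Calb2 0.11), Both_0.3Cyp (Calb2 0.19), Paternal_10Cyp (Calb2 0.25 and Ebf3 0.099), Maternal_10Cyp (Trp73 -0.071, Lhx5 0.16, Calb2 0.23 and Ebf3 0.051) and Both_10Cyp (Lhx5 0.10, Calb2 0.073 and Ebf3 0.053), and Trp73 in Maternal_0.3Cyp was at 0.16 (adjusted p = 0.368). In fits of the compared groups alone, the log2 fold change turned sign for Both_10Cyp (Lhx5 0.022). By limma voom with quality weights, members called numbered 1 (Maternal dose 10 against 0.3 and non-additivity at dose 10), and the log2 fold change turned sign for Paternal_0.3Cyp (Lhx1 -0.22), Maternal_0.3Cyp (Reln 0.013 and Ebf3 0.035), Both_0.3Cyp (Calb2 0.00012), Paternal_10Cyp (Calb2 0.15 and Ebf3 0.099), Maternal_10Cyp (Lhx5 0.074) and Both_10Cyp (Lhx5 0.087 and Ebf3 0.012). By DESeq2, members called numbered 2 (joint test of the 6 exposed groups). With transcript length and GC offsets, members called numbered 0 (Maternal_10Cyp and joint test of the 6 exposed groups), and the log2 fold change turned sign for Maternal_0.3Cyp (Reln 0.092) and Both_10Cyp (Lhx5 0.0018), and Reln in Maternal_10Cyp was at -0.36 (adjusted p = 0.0595). Without Ctrl replicate 3 and Paternal_0.3Cyp replicate 9 together, members called numbered 0 (Maternal_0.3Cyp and joint test of the 6 exposed groups) and 1 (non-additivity at dose 10), and the log2 fold change turned sign for Paternal_0.3Cyp (Lhx1 -0.28 and Calb2 0.037), Maternal_0.3Cyp (Ebf3 0.061), Both_0.3Cyp (Calb2 0.096), Paternal_10Cyp (Calb2 0.19 and Ebf3 0.10), Maternal_10Cyp (Lhx5 0.071 and Calb2 0.046) and Both_10Cyp (Lhx5 0.11, Calb2 0.0041 and Ebf3 0.056), and Trp73 in Maternal_0.3Cyp was at 0.28 (adjusted p = 0.0647). P-values are those of edgeR unless another tool is named.

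Leaving out 1 library at a time, members called ranged from 0 to 2 (Paternal_0.3Cyp), from 0 to 1 (Maternal_0.3Cyp), from 0 to 1 (non-additivity at dose 10) and from 0 to 2 (joint test of the 6 exposed groups). Lhx1 log2 fold changes ran from -0.56 to 0.69 in Paternal_0.3Cyp. Lhx5 log2 fold changes ran from 0.10 to 0.47 in Paternal_0.3Cyp, -0.098 to 0.083 in Maternal_10Cyp and -0.10 to 0.11 in Both_10Cyp. Calb2 log2 fold changes ran from -0.15 to 0.17 in Paternal_0.3Cyp, -0.15 to 0.10 in Both_0.3Cyp, -0.060 to 0.20 in Paternal_10Cyp, -0.19 to 0.053 in Maternal_10Cyp and -0.23 to 0.0056 in Both_10Cyp. Ebf3 log2 fold changes ran from -0.22 to 0.95 in Paternal_0.3Cyp, -0.28 to 0.077 in Maternal_0.3Cyp, -0.36 to 0.026 in Both_0.3Cyp, -0.21 to 0.16 in Paternal_10Cyp and -0.30 to 0.056 in Both_10Cyp. Trp73 log2 fold changes ran from 0.27 to 0.35 in Maternal_0.3Cyp and -0.020 to 0.083 in Maternal_10Cyp.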
